A study of Mus musculus with 9 samples.

Results

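A set of 9 genes that mark neural stem cells and radial glia was followed across mouse gliomas and normal brain cells: Nes, Vim, Prom1, Fabp7, Msi1, Pax6, Nr2e1, Hopx and Tnc. They were chosen as the non-control probes whose gene name on the array is one of these 9 symbols. This took 9 of 34733 gene names and 14 of 55666 probes. Transcripts were measured on 9 single-colour Agilent arrays, 1 sample each, with 60-base probes. The first group was brain tumour tissue labelled as an EZH2 knockout of the MADM mouse background, on 3 arrays. MADM, mosaic analysis with double markers, makes rare marked mutant cells by recombination between chromosomes. Ezh2 is the enzyme of Polycomb repressive complex PRC2 that methylates histone H3. The second group was glioma cells taken from brain tumours of the MADM background, on 2 arrays, with no EZH2 genotype given. The third was neural stem cells and the fourth astrocytes, each on 2 arrays, from normal wild-type C57BL/6J brain. The labels do not give the tumour mutations, the driver of recombination, animal ages, culture conditions, or whether the arrays of 1 group stand for different animals or cultures. The p-values thus rest on the spread among the arrays of a group, and part or all of that spread may be technical.

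Radial glia are the stem cells of the embryonic brain, and neural stem cells of the adult brain descend from them and resemble astrocytes. Nes and Vim encode intermediate filaments of the progenitor cytoskeleton, and Fabp7 a fatty acid binding protein of radial glia. Msi1 is an RNA-binding protein that represses translation of mRNAs such as Numb. Pax6 and Nr2e1 (also called Tlx) are transcription factors that maintain progenitors, and Hopx is a homeodomain protein that does not bind DNA and marks outer radial glia of the human cortex. Prom1 (CD133) is a membrane glycoprotein of cell protrusions, and Tnc (tenascin-C) an extracellular matrix protein of the stem cell niche. Several of these genes are also made by astrocytes or ependymal cells.

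Of the 14 probes, 6 are shown, in lower case, because the results on Prom1, Pax6 and Tnc turn on whether more than 1 place in the transcript changed, and because the Msi1 probes differed from each other. The capitals mark the stop codon of Pax6. Their mm9 positions are as the scanner files give them.
Prom1 probe, chr5:44397410-44397469, minus strand: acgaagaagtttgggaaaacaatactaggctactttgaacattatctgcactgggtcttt
Pax6 probe over an intron, within chr2:105524098-105524949, plus strand: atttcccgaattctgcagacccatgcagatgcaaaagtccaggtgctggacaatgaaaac
Pax6 probe at the stop codon, chr2:105536454-105536513, plus strand: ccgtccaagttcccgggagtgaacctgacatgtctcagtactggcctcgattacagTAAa
Tnc probe over an intron, within chr4:63674248-63675011, minus strand: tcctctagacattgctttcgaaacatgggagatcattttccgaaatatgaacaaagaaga
Tnc probe nearer the 3′ end, chr4:63643728-63643787, minus strand: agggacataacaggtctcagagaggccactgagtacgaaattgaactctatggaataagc
Msi1 probe, chr5:115890516-115890575, plus strand: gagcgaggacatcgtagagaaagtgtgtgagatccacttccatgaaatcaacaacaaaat
The genomic span of the Pax6 probe over an intron is 852 bases and that of the Tnc probe over an intron 764 bases, against 60 bases of probe, so each crosses a splice junction. The other 8 probes are given by position only. They are the probes of Fabp7 (chr10:57508039-57508098), Nr2e1 (chr10:42281826-42281885), Nes (chr3:87784303-87784362) and Vim (chr2:13504232-13504291), both probes of Hopx (chr5:77516460-77516519 and chr5:77516624-77516683), and the probes of Msi1 (chr5:115904030-115904089) and Prom1 (chr5:44384861-44384920) that were brighter and served for the test of the gene.

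The 250 bases before the start site are shown for the 4 genes that were lower together in the glioma cells than in astrocytes. They come from RefSeq, build GRCm38.p6, where 8 of the 9 genes matched and Msi1 did not. Both strands were searched for the binding letters of RBPJ, the DNA-binding partner of Notch (TGGGAA), of SOX factors (ACAATG), of an E-box (CAGCTG) and of the octamer bound by POU factors (ATGCAAAT). The capitals mark every match, and no matches overlapped.
Prom1, chr5:44101737-44101986, minus strand: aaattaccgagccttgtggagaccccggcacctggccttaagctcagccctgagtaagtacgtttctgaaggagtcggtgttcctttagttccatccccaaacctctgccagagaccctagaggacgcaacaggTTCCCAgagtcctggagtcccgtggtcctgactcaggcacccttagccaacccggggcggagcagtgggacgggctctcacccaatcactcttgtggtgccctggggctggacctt
Pax6, chr2:105668646-105668895, plus strand: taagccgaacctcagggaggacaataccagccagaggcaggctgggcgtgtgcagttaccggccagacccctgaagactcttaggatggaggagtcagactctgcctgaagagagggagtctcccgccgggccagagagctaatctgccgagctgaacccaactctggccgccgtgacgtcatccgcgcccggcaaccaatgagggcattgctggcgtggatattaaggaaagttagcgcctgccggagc
Nr2e1, chr10:42583591-42583840, minus strand: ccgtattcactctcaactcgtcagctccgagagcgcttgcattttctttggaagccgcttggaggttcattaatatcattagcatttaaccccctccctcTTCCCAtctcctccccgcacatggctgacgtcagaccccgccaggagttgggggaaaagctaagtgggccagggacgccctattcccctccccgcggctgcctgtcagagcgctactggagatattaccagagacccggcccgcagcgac
Tnc, chr4:64047016-64047265, minus strand: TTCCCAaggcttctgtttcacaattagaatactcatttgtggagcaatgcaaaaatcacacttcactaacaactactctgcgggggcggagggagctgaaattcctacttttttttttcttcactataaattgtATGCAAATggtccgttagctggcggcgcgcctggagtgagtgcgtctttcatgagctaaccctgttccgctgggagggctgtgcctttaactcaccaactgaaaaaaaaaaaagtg
The RBPJ letters began 116 bases before the start of Prom1, 150 before that of Nr2e1 and 250 before that of Tnc. They were also found 249 bases before the start of Fabp7, so 4 of the 8 matched genes held them, against 21.6% of 32851 mouse promoter windows of the same length. The octamer was found in Tnc, 116 bases before its start, and is held by 1.6% of windows. Neither the SOX letters, in 10.7% of windows, nor the E-box, in 13.0%, were in any window of these genes, which says only that these letters are not in these windows. At the first listed start site, CpG dinucleotides stood at 0.74 of the number expected from base composition in Nr2e1, 0.69 in Nes and 0.65 in Pax6, while Fabp7 had 0.21. The median over all windows was 0.37. A match of letters is a description and not a binding site.

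Every level below is the log2 processed signal of a probe minus the log2 75th percentile of its array, so that 0 is that percentile. Levels are compared within a probe and never between genes. A gene is called higher or lower when the change is at least 2-fold and the Benjamini-Hochberg adjusted p over all tested genes is under 0.05 in limma. Ezh2 itself read 1.91, 1.62 and 1.48 in the tissue, 3.03 and 3.24 in glioma cells, 2.14 and 3.38 in neural stem cells and 0.19 and -0.58 in astrocytes. All 9 arrays read it well above background, and the tissue lay below the glioma cells and the neural stem cells and above the astrocytes. Whether its probe lies in the deleted part of the gene is not given in the sources used here. The reading thus does not settle the knockout label. Between 60.1% and 65.7% of spots on an array were well above background. The 3 tissue arrays were on 1 slide and in 1 scan run, and the 6 cell arrays on another, so tissue and slide cannot be told apart. In bulk samples, fewer cells of a type and less RNA per cell cannot be told apart.

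The labels were set against marker genes of 10 cell classes or states, as mean log2 levels of each list. A list of 8 further stem cell markers, none of them among the 9 genes, had means of 0.12 and 1.28 in glioma cells, 3.17 and 2.75 in neural stem cells and 0.84 and -0.60 in astrocytes. In the tissue they stood at 1.19 to 1.45. The neural stem cell arrays were thus the highest for their own markers. The mean of 0.12, on glioma cell array 1, included Sox2 at -7.55, which was not well above background there. On glioma cell array 2 Sox2 read 2.28. Astrocyte markers had means of 2.26 to 3.21 in the tissue, -1.23 and -0.75 in glioma cells, 3.00 and 0.61 in neural stem cells and 3.50 and 2.46 in astrocytes, so glioma cells were lowest. Of the 14 astrocyte markers, 10 were well above background on each glioma cell array, and the gap junction genes Gja1 and Gjb6 were not on either. Not all of the list was low. S100b read 7.47 and 6.08 in glioma cells against 4.87 and 2.39 in astrocytes, and Aldoc 7.42 and 7.60 against 8.45 and 6.41. Most of the other astrocyte markers read lower in glioma cells than in astrocytes. The 10 ependymal markers had means of 3.56 and 2.12 on the astrocyte arrays and between -3.23 and -0.74 on the 7 others, with Foxj1, the master gene of motile cilia, at 4.36 and 3.78 on the astrocyte arrays and at most -0.66 elsewhere. Microglial markers were high in the tissue (2.48 to 3.57) and on the astrocyte arrays (2.46 and 3.27), and low in glioma cells (-3.99 and -3.82) and neural stem cells (-1.08 and -2.61). Fibroblast and meningeal markers stood at 1.13 on astrocyte array 1 and 5.48 on astrocyte array 2. The astrocyte arrays thus also carried marker transcripts of ependymal cells, microglia and fibroblasts.

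**Figure D1:**
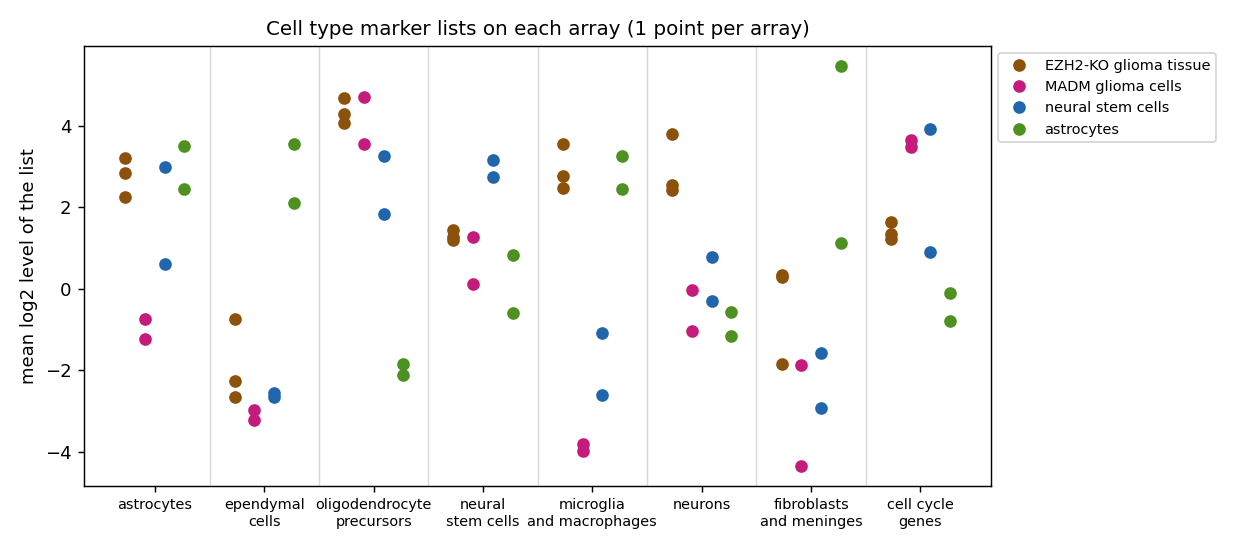
Mean log2 level (y axis, relative to the 75th percentile of each array) of marker lists for 8 cell classes or states (x axis), with 1 point per array; within each class the tissue is at the left, then glioma cells, neural stem cells and astrocytes. Ependymal markers reach 3.56 and 2.12 on the astrocyte arrays and lie below 0 on all others, and astrocyte markers are lowest on the glioma cell arrays.

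Prom1, the membrane glycoprotein, had the largest fitted difference between glioma cells and normal cells among the 9, a rank that rests on glioma cell array 1. Without that array, Prom1 differed from astrocytes by -3.65, against -3.82 for Pax6. From neural stem cells it then differed by -2.96, against -3.21 for Tnc. The tested Prom1 probe read 2.63, 1.59 and 0.15 in the tissue, -6.27 and -1.34 in glioma cells, 1.70 and 1.54 in neural stem cells and 2.20 and 2.42 in astrocytes. The glioma cell arrays lay below all 7 others without overlap, but differed widely from each other, and array 1 was not well above background. The log2 difference of glioma cells from astrocytes was -6.12 (SE 1.54, adjusted p = 0.0496), and that from neural stem cells was -5.43 (SE 1.54, adjusted p = 0.203), which did not pass. The tissue was higher than the glioma cells by 5.26 (SE 1.32, adjusted p = 0.0333). Its difference from neural stem cells was -0.16 (SE 1.32) and that from astrocytes -0.85 (SE 1.32), and neither passed.

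The Prom1 probe whose sequence is shown was not well above background on either glioma cell array and was well above it on every other array. It read -2.31, -3.27 and -4.73 in the tissue, -7.30 and -6.25 in glioma cells, -2.55 and -2.77 in neural stem cells and -2.58 and -1.72 in astrocytes. The glioma cell arrays were again the lowest, with no overlap. With glioma cells set at the lowest signal that counts as well above background, they were at least 5.52-fold lower than neural stem cells and at least 7.86-fold lower than astrocytes. The tissue was at least 3.22-fold higher than the glioma cells. In that order, the adjusted p was 0.0414, 0.00553 and 0.0179 in limma with every probe fitted on its own. These belong to the fitted differences of -4.11, -4.62 and 3.34 and not to the bounds. Those differences rest on glioma cell readings not well above background, and the probe entered the fits only through the other groups. Both probes thus placed the glioma cells lowest.

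Pax6, the paired-box transcription factor, followed the same order of groups. The probe at its stop codon read -2.36, -1.87 and -2.98 in the tissue, -6.50 and -3.95 in glioma cells, -0.61 and -1.42 in neural stem cells and 0.10 and -0.36 in astrocytes. The 4 groups did not overlap, and glioma cell array 1 was not well above background. Glioma cells differed from astrocytes by -5.09 (SE 0.87, adjusted p = 0.0192) and from neural stem cells by -4.21 (SE 0.87, adjusted p = 0.116), of which the first passed. The tissue was higher than glioma cells by 2.82 (SE 0.72, adjusted p = 0.0357). Against astrocytes it differed by -2.27 (SE 0.72, adjusted p = 0.0567) and against neural stem cells by -1.39 (SE 0.72, adjusted p = 0.215), which did not pass. The probe over the intron was well above background on neither glioma cell array, on 1 tissue array and 1 neural stem cell array, and on both astrocyte arrays. It entered the fits only through the astrocyte arrays, so its call is not separate support. With glioma cells at the lowest signal well above background, they were at least 1.88-fold lower than astrocytes there. The adjusted p of 0.05 as rounded, just inside the threshold in limma, belongs to the fitted difference of -3.15. That difference rests on glioma cell readings not well above background. No other comparison passed at this probe with every probe fitted on its own. The adjusted p was 0.498 for glioma cells over neural stem cells and 0.148 for tissue over glioma cells.

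Tnc, the matrix protein, was the third gene that was low in glioma cells. Its tested probe read -3.41, -0.55 and -1.40 in the tissue, -4.41 and -2.76 in glioma cells, 0.47 and 0.43 in neural stem cells and -0.11 and -0.39 in astrocytes. Glioma cells lay below both normal cell types without overlap, while tissue array 1 fell between the glioma cell arrays. Glioma cells differed from astrocytes by -3.34 (SE 0.57, adjusted p = 0.0192). The difference from neural stem cells was -4.04 (SE 0.57) with an adjusted p of 0.0558, just outside the threshold. The Tnc probe nearer the 3′ end gave -3.09 (SE 0.73, adjusted p = 0.0397) against astrocytes and -4.38 (SE 0.73, adjusted p = 0.0755) against neural stem cells. The tissue did not pass against any cell group, with differences of 1.80 from glioma cells, -2.24 from neural stem cells and -1.54 from astrocytes (SE 0.82).

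Nr2e1, the orphan nuclear receptor, split the 4 groups into a tumour pair and a normal pair. It read 0.70, -0.55 and -0.18 in the tissue, 0.71 and 0.53 in glioma cells, 2.95 and 2.06 in neural stem cells and 2.69 and 2.37 in astrocytes. Every tumour array lay below every normal array, and the normal cell types overlapped each other. At their tested probes, Pax6 and Tnc also had every tumour array below every normal array. The share of all genes with such a split was not counted. Glioma cells were lower than astrocytes by a log2 difference of -1.91 (SE 0.39, adjusted p = 0.0296), and their difference from neural stem cells was -1.89 (SE 0.39, adjusted p = 0.115). The tissue was lower than neural stem cells by -2.52 (SE 0.43, adjusted p = 0.00865) and lower than astrocytes by -2.54 (SE 0.43, adjusted p = 0.00688). Both tissue calls held whichever of the 9 arrays was dropped, with adjusted p of at most 0.0407 against neural stem cells and 0.0448 against astrocytes. Neural stem cells and astrocytes differed by -0.02 (SE 0.39), a p of 0.961 before adjustment.

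Hopx read 0.65, 1.36 and -0.98 in the tissue, -1.15 and -2.47 in glioma cells, 0.95 and -1.69 in neural stem cells and 2.68 and 1.10 in astrocytes. Glioma cells lay below astrocytes and below the tissue without overlap, while the neural stem cell arrays lay below astrocytes and overlapped the glioma cells and the tissue. The difference of glioma cells from astrocytes was -3.70 (SE 1.06, adjusted p = 0.0663) at the tested probe and -2.96 (SE 1.08) at the other, and neither passed. Its 5 other comparisons did not pass either, with differences between -2.26 and 2.15.

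**Figure D2:**
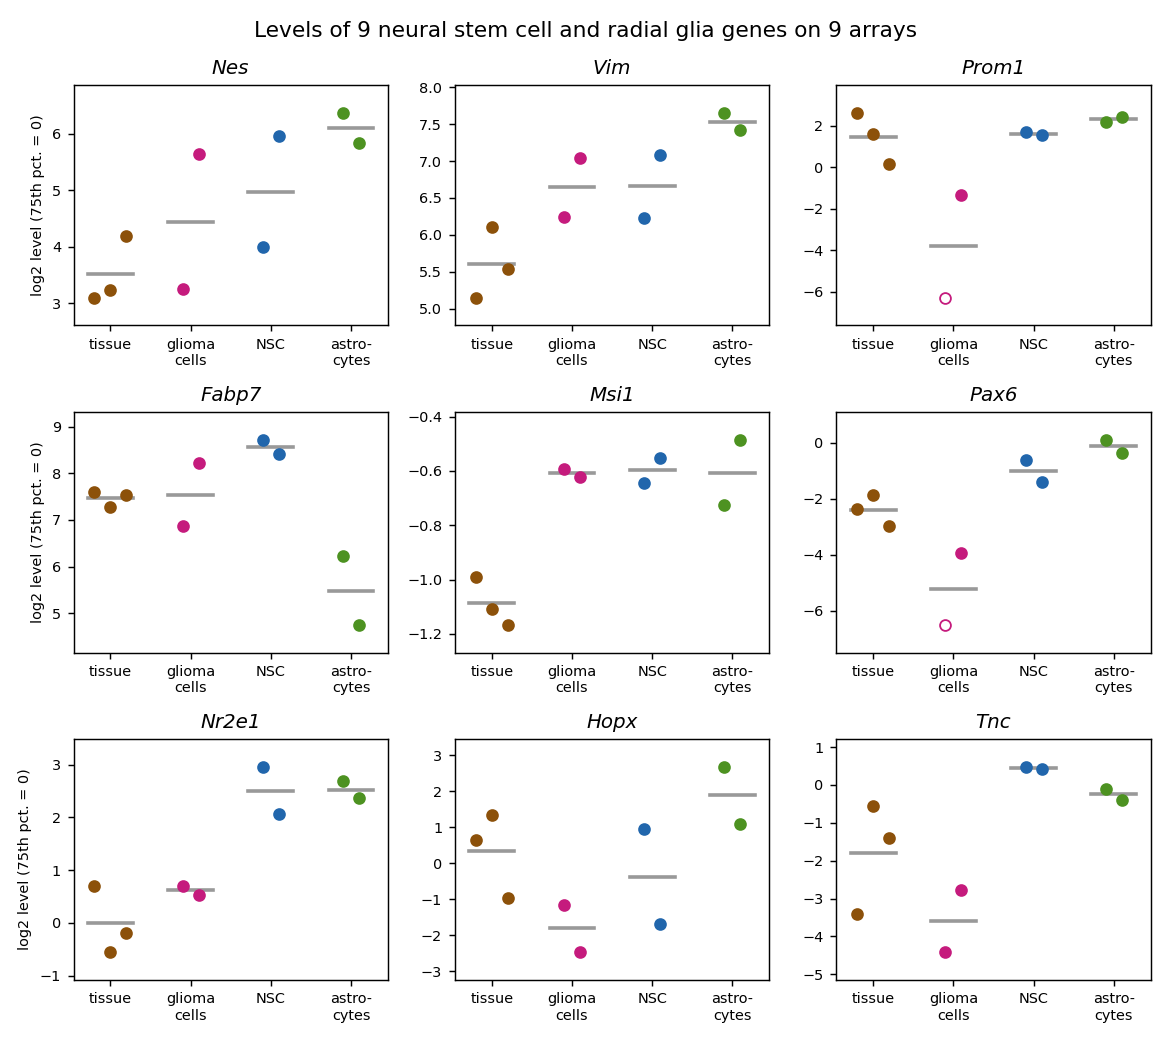
Log2 level of each of the 9 genes (y axes, each with its own range, relative to the 75th percentile of the array) in tissue, glioma cells, neural stem cells (NSC) and astrocytes (x axis); points are arrays, open points were not well above background, and grey lines are group means. Prom1 and Pax6 each have 1 open point, on glioma cell array 1, and Nr2e1, Pax6 and Tnc each have all 5 tumour arrays below all 4 normal arrays.

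Fabp7, the radial glial fatty acid binding protein, was lowest in astrocytes, unlike the genes above. It read 7.59, 7.27 and 7.53 in the tissue, 6.87 and 8.21 in glioma cells, 8.72 and 8.40 in neural stem cells and 6.22 and 4.75 in astrocytes. The astrocyte arrays did not overlap with any other group, and glioma cells lay below neural stem cells without overlap. Neural stem cells were higher than astrocytes by 3.07 (SE 0.67, adjusted p = 0.0407), and the tissue was higher than astrocytes by 1.98 (SE 0.52, adjusted p = 0.0317). Glioma cells differed from astrocytes by 2.05 (SE 0.67, adjusted p = 0.087), which did not pass. Among the 3 higher groups no difference passed, and that of glioma cells from neural stem cells was -1.02 (SE 0.67).

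Nes and Vim, the intermediate filaments, were bright in all groups and highest in astrocytes. Nes read 3.10, 3.24 and 4.19 in the tissue, 3.25 and 5.63 in glioma cells, 3.99 and 5.95 in neural stem cells and 6.37 and 5.83 in astrocytes. Vim read 5.15, 6.11 and 5.54 in the tissue, 6.24 and 7.04 in glioma cells, 6.23 and 7.09 in neural stem cells and 7.65 and 7.41 in astrocytes. For both genes array 1 was the lower one in glioma cells and in neural stem cells. Vim was lower in the tissue than in astrocytes by -1.93 (SE 0.42, adjusted p = 0.0162), and the Nes difference was -2.59 (SE 0.82, adjusted p = 0.0549), which did not pass. Between glioma cells and neural stem cells, Vim differed by -0.01 (SE 0.44) and Nes by -0.53 (SE 0.99), and neither passed. Astrocyte array 2, which carried the more fibroblast marker signal, was the lower of the astrocyte arrays for both genes; the part of fibroblast transcripts in the result was not tested.

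Msi1, the RNA-binding protein, varied least at the tested probe. That probe read -0.99, -1.11 and -1.17 in the tissue, -0.59 and -0.62 in glioma cells, -0.65 and -0.55 in neural stem cells and -0.73 and -0.49 in astrocytes. The 3 tissue arrays lay below the 6 cell arrays, and the cell groups overlapped. The tissue differed from the cell groups by -0.48 to -0.49 (SE 0.22), with adjusted p between 0.153 and 0.171, and no cell comparison differed by more than 0.01. The Msi1 probe whose sequence is shown read -2.64, -2.63 and -2.67 in the tissue, -3.58 and -2.32 in glioma cells, -1.77 and -2.56 in neural stem cells and -1.42 and -1.96 in astrocytes. There glioma cells differed from astrocytes by -1.26 (SE 0.55) and from neural stem cells by -0.78 (SE 0.55), neither of which passed. The cause of the difference between the Msi1 probes was not tested.

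**Figure D3:**
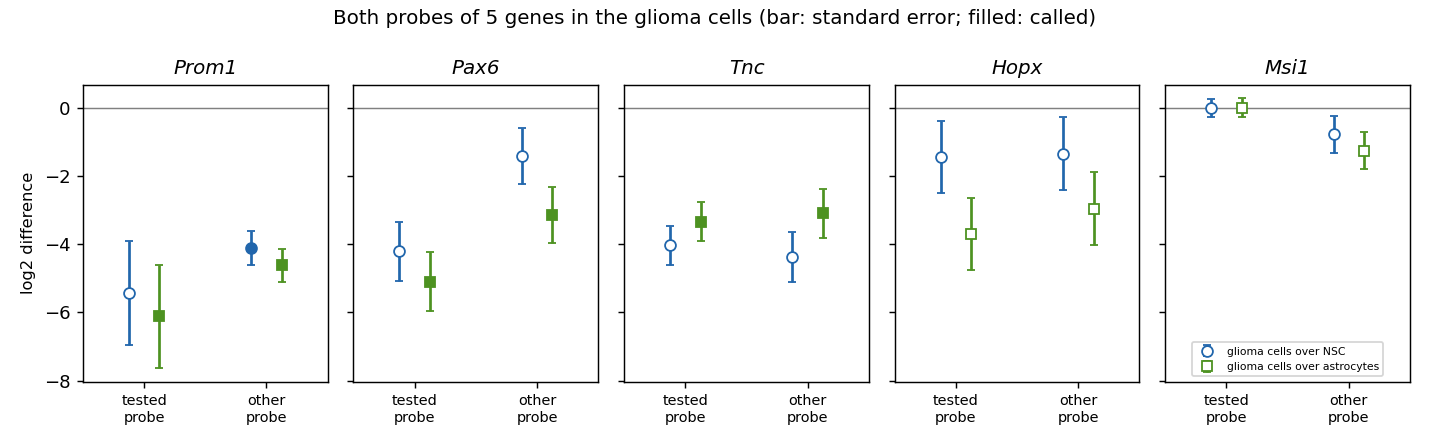
Log2 difference of glioma cells from neural stem cells (circles) and from astrocytes (squares) for both probes of the 5 genes with 2 probes; bars are standard errors and filled symbols passed the test. Both probes of Prom1, Pax6 and Tnc lie below 0 in both comparisons, and Msi1 lies at 0 on 1 probe only; values on probes not well above background are fitted and not bounds.

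By mean level, the order was astrocytes, neural stem cells, glioma cells and tissue for Nes, Vim and Nr2e1, and no neighbouring groups in that order passed the test. Prom1 and Pax6 had the order astrocytes, neural stem cells, tissue and glioma cells, in which only the step between tissue and glioma cells passed. For Fabp7 the order was neural stem cells, glioma cells, tissue and astrocytes, and only the step between tissue and astrocytes passed. Hopx ran from astrocytes through tissue and neural stem cells to glioma cells, and Tnc from neural stem cells through astrocytes and tissue to glioma cells, with no neighbouring step passing in either. Prom1 and Pax6 were lowest in glioma cells, where the astrocyte markers had their lowest means. On neural stem cell array 2 the astrocyte marker mean was 0.61, below the tissue at 2.26 to 3.21. Pax6 on that array read -1.42, above the tissue at -2.98 to -1.87, and Vim at 7.09 was above the tissue at 5.15 to 6.11. Prom1 at 1.54 lay within the tissue range of 0.15 to 2.63, and Hopx at -1.69 lay below the tissue at -0.98 to 1.36. The part of astrocyte and ependymal transcripts in the Prom1, Pax6, Hopx and Vim results was not tested.

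Glioma cells were compared with astrocytes and with neural stem cells to ask how the tumour cells stand beside normal glia and their stem cells. Against astrocytes, 4 of the 9 genes were lower (Prom1, Pax6, Tnc and Nr2e1) and none was higher. Over all genes, 9.91% of 24866 were called lower and 9.09% higher, 19% together. No overlap between glioma cells and astrocytes was seen for 8 of the 9 (7 lower and Fabp7 higher), against 69.2% of all genes. The median difference of the 9 genes was -1.91, against 0.15 for all genes. Without astrocyte array 1, none of the 4 calls held, with adjusted p of 0.155 for Prom1, 0.0855 for Pax6 and for Tnc and 0.125 for Nr2e1. Without astrocyte array 2, none held either, with 0.158, 0.0732, 0.0742 and 0.0913 for Prom1, Pax6, Tnc and Nr2e1. The Prom1 difference was -3.65 without glioma cell array 1, still called. Without array 2 it was called too, but the remaining array was not well above background and gives only a bound, at least 193-fold lower than astrocytes. The Prom1 call was lost without either neural stem cell array (adjusted p = 0.0883 and 0.0898). Nr2e1 no longer passed when either glioma cell array was dropped (adjusted p = 0.092 and 0.12). Pax6 differed by -3.82 and Tnc by -2.51 without glioma cell array 1, both called. Without array 2 both were called as well, Tnc at -4.16 and Pax6 with a bound of at least 35.5-fold lower, since array 1 was not well above background for it.

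Against neural stem cells, none of the 9 genes was called in limma, where 0.997% of 24866 genes were called, 0.676% higher and 0.322% lower. At an unadjusted p under 0.05, 4 of the 9 stood out, all lower (Tnc, Nr2e1, Pax6 and Prom1), against 14.6% of all genes. A set of 5, these 4 and Fabp7, did not overlap between the groups, against 46.1% of all genes. The median of the 9 was -1.44, and that of all genes -0.05. Without glioma cell array 2, which left 1 glioma cell array, Tnc differed by -4.86. Prom1 and Pax6 were not well above background on the glioma cell array that remained, so their changes are bounds: glioma cell array 1 was at least 120-fold lower than neural stem cells for Prom1 and at least 19.2-fold lower for Pax6. The glioma cell arrays had cell cycle marker means of 3.48 and 3.67, neural stem cell array 1 of 0.91 and array 2 of 3.94.

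Neural stem cells were set against astrocytes as the 2 normal cell types. Fabp7 was higher in neural stem cells, and the other 8 genes did not pass. Over all genes, 6.8% were called higher and 7.89% lower, 14.7% together. The 2 cell types did not overlap for 6 of the 9, against 66.3% of all genes. The median of the 9 was -0.69, against 0.21 for all genes. The Fabp7 difference was 3.81 without astrocyte array 1 and 2.34 without array 2, and its call was lost in both (adjusted p = 0.054 and 0.133) and without either neural stem cell array (adjusted p = 0.115 and 0.138). Ependymal, microglial and fibroblast markers were higher on the astrocyte arrays, with the values given above. Oligodendrocyte precursor markers had means of 3.26 and 1.83 in neural stem cells, against -1.85 and -2.13 in astrocytes. The part of all these markers in the results was not tested.

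**Figure D4:**
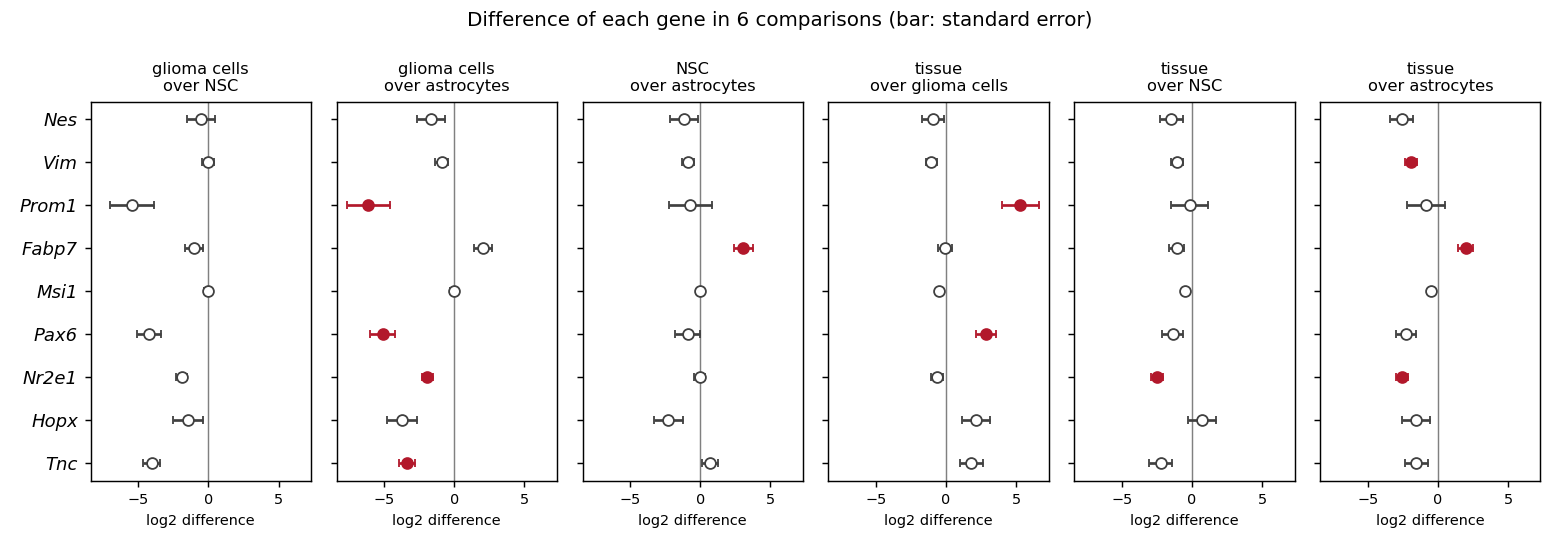
Log2 difference (x axis) of each of the 9 genes (y axis) in 6 comparisons, the group named first minus the second; bars are standard errors and filled red points passed the test. In glioma cells over astrocytes 4 genes pass, in glioma cells over neural stem cells none does, and Nr2e1 passes in tissue over both normal cell types.

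The tissue labelled as an EZH2 knockout was set against the glioma cells and against each normal cell type. It was higher than glioma cells in 2 of the 9 genes, Prom1 and Pax6, where 7.82% of 25397 genes were called higher and 9.11% lower, 16.9% together. The groups did not overlap for 5 of the 9, against 55.2% of all genes. Without glioma cell array 1, the Prom1 difference was 2.80 (adjusted p = 0.101) and the Pax6 difference 1.54 (adjusted p = 0.146). Without array 2 both passed, but glioma cell array 1 was not well above background for either gene, and the tissue was at least 107-fold higher than that array for Prom1 and at least 7.35-fold higher for Pax6. The Prom1 call was also lost without tissue array 1 (adjusted p = 0.0914), tissue array 2 (0.0811), astrocyte array 1 (0.0531) or astrocyte array 2 (0.0521). The Pax6 call was also lost without tissue array 1, 2 or 3 (adjusted p = 0.0873, 0.0936 and 0.0543) or astrocyte array 1 or 2 (0.0551 and 0.0541). The tissue carried neuronal markers at means of 2.43 to 3.80, against -1.04 and -0.02 in glioma cells, and the microglial gap is given above. Their part in the result was not tested.

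Against neural stem cells, 1 of the 9 was lower in the tissue, Nr2e1, where 9.89% of genes were called lower and 8.08% higher, 18% together. The groups did not overlap for 6 of the 9, against 52.3% of all genes. Against astrocytes, Fabp7 was higher, and Nr2e1 and Vim were lower, where 10.6% were called higher and 12.4% lower, 23% together. The groups did not overlap for 7 of the 9, against 58% of all genes. The Fabp7 call was lost without tissue array 1, 2 or 3 (adjusted p = 0.0804, 0.0577 and 0.0829) and without astrocyte array 2, where the difference was 1.24 (adjusted p = 0.178). The Vim call was lost without astrocyte array 1 (adjusted p = 0.0862) or array 2 (0.0624). The medians of the 9 were -0.08 against glioma cells, -1.10 against neural stem cells and -1.54 against astrocytes, beside -0.16, -0.22 and -0.06 for all genes. Neuronal markers had means of 2.43 to 3.80 in the tissue, against 0.78 and -0.30 in neural stem cells and -0.56 and -1.17 in astrocytes. Oligodendrocyte precursor markers had means of 4.08 to 4.69 in the tissue, against 3.26 and 1.83 in neural stem cells and -1.85 and -2.13 in astrocytes. The part of these markers in the tissue results was not tested. These comparisons share the tissue arrays, and the tissue was on a slide of its own.

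The spread between the 2 arrays of a group was itself large for some of these genes. Glioma cell array 1 was lower than array 2 by a log2 difference of -4.94 in Prom1, -2.56 in Pax6, -2.38 in Nes, -1.65 in Tnc and -1.34 in Fabp7, and was higher in Hopx by 1.31. The Prom1 and Pax6 gaps rest on array 1 readings that were not well above background. At the lowest signal that was, array 2 was at least 15.4-fold higher than array 1 for Prom1 and at least 2.52-fold higher for Pax6. The median gap over all genes was 0.34. Neural stem cell array 1 was higher than array 2 in Hopx by 2.64 and lower in Nes by -1.96, gaps reached by 3.09% and 6.46% of genes. On those arrays astrocyte markers stood at 3.00 and 0.61, and cell cycle genes at 0.91 and 3.94. Astrocyte array 1 was higher than array 2 in Hopx by 1.58 and in Fabp7 by 1.47. Msi1 differed by 0.24 or less in every pair at its tested probe. The other Msi1 probe had wider gaps. It read -3.58 and -2.32 in glioma cells, -1.77 and -2.56 in neural stem cells and -1.42 and -1.96 in astrocytes. Whether cell state, culture or dissection set these gaps was not tested.

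**Figure D5:**
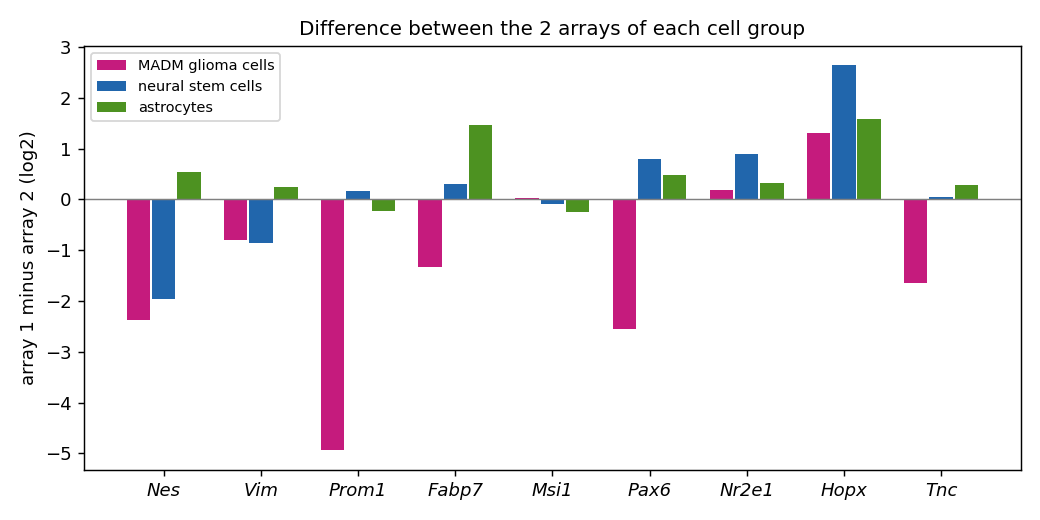
Log2 level on array 1 minus that on array 2 (y axis) for each of the 9 genes (x axis) in glioma cells, neural stem cells and astrocytes. Prom1 in glioma cells has the longest bar, at -4.94, and Hopx in neural stem cells reaches 2.64. The glioma cell bars of Prom1 and Pax6 rest on array 1 readings not well above background.

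A list of 28 other genes of neural stem cells and radial glia were read beside the 9. In glioma cells against astrocytes, 1 was higher and 7 were lower, where 9.09% of all genes were called higher and 9.91% lower, and the median was -1.01, against 0.15 for all genes. Sox3, a SoxB1 factor of neural progenitors, was higher by 7.45 (adjusted p = 0.013), and Sox1, of the same family, was lower by -4.17 (adjusted p = 0.00545). The Sox1 call held with each of the 6 cell arrays left out, and Sox3 did not pass once glioma cell array 2 was dropped (adjusted p = 0.0541). Egfr, the receptor of epidermal growth factor, was lower by -5.73 (adjusted p = 0.0176), a call lost without astrocyte array 1 (0.0565) or array 2 (0.0816). Against neural stem cells, only Sox1 was called among the 28, where 0.997% of all genes were called, at -3.39 (adjusted p = 0.0474), and the call was lost with any 1 of the 6 arrays left out, with adjusted p between 0.0731 and 0.146.

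In neural stem cells against astrocytes, 4 of the 28 were higher and 1 was lower, where 6.8% of all genes were called higher and 7.89% lower. Sox3 was higher by 7.92 (adjusted p = 0.0143), and Hes5, a Notch target that holds progenitors undifferentiated, by 7.58 (adjusted p = 0.0285). The Sox3 call was lost without neural stem cell array 1 (0.0541) or array 2 (0.0811). Hes5 did not pass once glioma cell array 1 or 2 (0.0505 and 0.0511), astrocyte array 2 (0.0664) or neural stem cell array 1 or 2 (0.0877 and 0.0772) was dropped. Il6st, the shared receptor subunit of the interleukin-6 family, was lower by -2.56 (adjusted p = 0.0206), and did not pass once astrocyte array 1 (0.0577), or array 1 or 2 of neural stem cells (0.0595 and 0.0985), was dropped.

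In the tissue, 1 of the 28 was higher than in glioma cells, where 7.82% of all genes were called higher and 9.11% lower. It was Gfap, the astrocyte filament, with a fitted difference of 7.93 (adjusted p = 0.0468) that rests in part on glioma cell array 2, where Gfap was not well above background. That call was lost in 7 of the 9 fits with an array left out: without any 1 tissue array (0.106, 0.114 and 0.0781), glioma cell array 1 or 2 (0.0839 and 0.211) or astrocyte array 1 or 2 (0.0642 and 0.0631). In all, 7 of the 28 were lower in the tissue than in neural stem cells and none was higher, where 9.89% of all genes were called lower and 8.08% higher. Among the 7 was Sox9, a glial and stem cell transcription factor, at -2.46 (adjusted p = 0.00842). Against astrocytes 3 were higher and 7 lower, where 10.6% of all genes were called higher and 12.4% lower. Sox3 was higher there by 6.06 (adjusted p = 0.0041) and Hes5 by 5.82 (adjusted p = 0.0113), both still called at 4.35 and 3.92 without astrocyte array 2, while Gli3, the hedgehog pathway repressor, was lower by -3.64 (adjusted p = 0.0044) and Sox1 by -3.04 (adjusted p = 0.00674). Against neural stem cells, Sox1 was lower in the tissue by -2.25 (adjusted p = 0.0236). Sox1, Sox9, Egfr and Gli3 of this list were thus called lower in the tissue against both normal cell types, as was Nr2e1, while Sox3 rose against astrocytes.

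Close relatives of the 9 genes, 25 by name, did not all follow them. In glioma cells against astrocytes, 3 of the 21 tested were higher and 4 lower, where 19% of all genes were called, and against neural stem cells none was called, with 0.997% of all genes called and 14.6% at an unadjusted p under 0.05. Ina, a neuronal intermediate filament, was higher in glioma cells than in astrocytes by 3.89 (adjusted p = 0.0086) and Tnxb, a tenascin, was lower by -3.04 (adjusted p = 0.00672), and both calls held with each array left out. Fabp5, a relative of Fabp7, was higher in glioma cells by 2.48 (adjusted p = 0.0144) and in neural stem cells by 3.20 (adjusted p = 0.00983), both against astrocytes. The first of these did not pass once glioma cell array 2 (0.0677) or astrocyte array 1 (0.0552) was dropped. Nefh, Pax3, Pax7 and Prph were also called there but were not well above background on either array of 1 side, so no fold is given. In the tissue, 5 of 22 tested relatives were higher than in glioma cells and none lower, 5 were higher and 1 lower than in neural stem cells, and 5 were higher and 5 lower than in astrocytes. Over all genes, the tissue had 16.9%, 18% and 23% called against glioma cells, neural stem cells and astrocytes.

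A list of 19 regulatory targets and partners, of which 17 were tested, held calls in both directions. In glioma cells against astrocytes, 3 were higher and 3 lower, where 19% of all genes were called. Cspg4, the NG2 proteoglycan of oligodendrocyte precursors, was higher by 6.07 (adjusted p = 0.00689), and Sdc4, a cell surface proteoglycan that binds fibronectin, was lower by -6.15 (adjusted p = 0.0194). Sdc4 did not pass once either glioma cell array was dropped (adjusted p = 0.0557 and 0.0763). None was called in limma against neural stem cells, where 0.997% of all genes were called and 14.6% had an unadjusted p under 0.05. In neural stem cells against astrocytes 2 were higher and 2 lower, where 14.7% of all genes were called. In the tissue none was higher and 1 lower than in glioma cells (Hdac1, a histone deacetylase, at -1.56, adjusted p = 0.0118), 3 were higher and 1 lower than in neural stem cells, and 3 were higher and 2 lower than in astrocytes. Over all genes those 3 shares called were 16.9%, 18% and 23%. Hdac1 did not pass once glioma cell array 1 was dropped, at -1.30 (adjusted p = 0.0847). Cspg4 went with the oligodendrocyte precursor markers, which had means of 4.72 and 3.57 in glioma cells, against -1.85 and -2.13 in astrocytes, and their part in the result was not tested.

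For each gene the 3 genes most like it were taken by Pearson's r over the 9 arrays among 15966 genes. The arrays fall into 4 groups and share normalisation and slides, so r is a description. Pax6 was followed most closely by Lxn (0.99), Mlc1 (0.977) and Slc25a18 (0.974), and Prom1 by Fibp (0.98), Pitpnm1 (0.965) and Grk2 (0.958). Pitpnm1 shared the low value of glioma cell array 1, at -3.35 against 0.90 on array 2, with tissue values of 2.88 to 4.29. For Tnc they were Kyat3 (0.961), Myo6 (0.952) and Otx2 (0.942), and for Nr2e1 Dus2 (0.974), Vps51 (0.968) and Tas1r3 (0.965). Otx2 read -3.18, -0.07 and -2.87 in the tissue, -7.04 and -5.75 in glioma cells, 2.32 and 2.37 in neural stem cells and 0.45 and 1.53 in astrocytes.

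Fabp7 was most like Ptbp2 (0.986), Trim33 (0.985) and Adgrg1 (0.971), and Hopx like Zc3h6 (0.975), Olfr638 (0.968) and Tst (0.954). Nes was most like Bicd2 (0.947), Fnbp1 (0.942) and Fndc11 (0.915), Vim like Dnaaf5 (0.957), Krt85 (0.953) and Spata6 (0.953), and Msi1 like Pygo1 (0.983), Krtap4-8 (0.981) and Clta (0.977). Adgrg1, an adhesion receptor of neural progenitors, read 3.35 to 3.67 in the tissue, 3.00 and 3.64 in glioma cells, 5.04 and 4.90 in neural stem cells and 2.57 and 0.53 in astrocytes. Fndc11 and Olfr638 lay near or below the lowest signal that is well above background on many arrays. Otx2 lay below that signal on both glioma cell arrays, and Pygo1 on tissue arrays 2 and 3.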

How the data were processed

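The deposited values are linear spot intensity readings, from which background was subtracted and a spatial trend removed within each array, per the file headers. The software was Agilent Feature Extraction 10.7.3.1 for the tissue and 10.7.1.1 for the cells, per the same headers, and the submitters' processing notes name 10.7.3.1. A log2 table deposited by the authors matched log2 of those signals within 0.01 for 99.01% to 99.81% of values on an array, with column medians of 5.08 to 6.28, and was used as an alternative only. Per the labels, 200 ng of TRIzol-extracted RNA were labelled with Cy3.

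From there, control spots and 96 to 164 outlier spots per array were left out, spots of a probe were averaged, and log2 signals were set against each array's 75th percentile (415 to 897 intensity units). No spot was saturated. Of 55681 probes, 15 had no spot left on some array. Gene names came through RefSeq GRCm38.p6 by accession (27232 probes), symbol (3579) or synonym (565), and from the files otherwise (24290). A probe entered a fit if all arrays of any 1 group in it read it well above background, and the brightest tested probe stood for a gene. All 9 genes passed. limma 3.58.1 in R 4.3.3 was fitted to the 6 cell arrays for cell comparisons (24866 genes) and to all 9 arrays for the tissue (25397 genes), two-sided, without a replicate block, and tested on simulated data. Where a probe was well above background on no array of a group, the change is a bound, with each dim array set at the higher of its own signal and the lowest signal well above background. Replicate numbers were not taken to pair samples: deviations of same-numbered arrays correlated at -0.006 (glioma cells and astrocytes), 0.047 (glioma cells and neural stem cells) and 0.124 (astrocytes and neural stem cells). Figures were drawn with matplotlib 3.10.9 in Python 3.11.15, with numpy 2.4.6 and pandas 2.3.3.

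The 9 genes, the gene lists and the marker lists were chosen with earlier results of these data known. Named genes are all 9, up to 4 called genes per list and direction with the largest change, of which a part is given, and the 3 genes most like each of the 9. Alternatives were normexp background correction, quantile normalization, the deposited table, the percentile over probes detected on all arrays, stricter and no filters, every probe on its own, a replicate block, other sets of arrays in the fit, and leaving out each array.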

Additional observations from a re-analysis of the deposited data

How the results depend on the processing

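Of 474 recalculated differences of the 9 genes, not counting fits with an array left out, 430 kept their direction and side of the threshold, 15 lost a call, 15 gained one and 14 changed sign. The sign changes were all of differences that had not passed. They were Msi1 in glioma cells over astrocytes (0.016 with normexp, 0.011 with quantile normalization), Vim in glioma cells over neural stem cells (0.014, quantile), Msi1 in neural stem cells over astrocytes (-0.40 with the deposited table, -0.079 with the percentile over detected probes, -0.23 as the median of its probes), Fabp7 in tissue over glioma cells (0.067 quantile, 0.46 deposited table, 0.16 detected probes), Msi1 in tissue over glioma cells (0.061) and over neural stem cells (0.018) with the deposited table, and Prom1 in tissue over neural stem cells (0.35 deposited table, 0.040 detected probes, 0.49 replicate block). Prph, a relative called lower in glioma cells than in astrocytes but not well above background in glioma cells, turned to 0.096 with normexp.

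In glioma cells over neural stem cells, 68 genes were called with the stricter filter, 134 with none, 50 with the replicate block and 486 in the fit of all 9 arrays, against 248. Of the 9 genes, 1 was called there with normexp (Tnc, adjusted p = 0.0332), 1 with the deposited table (Tnc, 0.0451) and 1 in the fit of all 9 arrays (Pax6, 0.0479). Over all genes, 174 of 24866 were called with normexp, 251 of 24866 with the deposited table and 486 of 25397 in the fit of all 9 arrays. Fitting every probe called 7287 probes in glioma cells over astrocytes, against 4725 genes, and 5938 in neural stem cells over astrocytes, against 3652. In the tissue, over glioma cells, 2770 genes were called with the stricter filter and 2600 with the block, against 4300. With the block, 2591 were called over neural stem cells, against 4564, and 3176 over astrocytes, against 5835.

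Of the 9 genes, 2 were called in glioma cells over astrocytes with the stricter filter, which removes Prom1 and Pax6 from testing, 5 with normexp (adding Hopx, 0.0486), 6 in the fit of all 9 arrays (adding Fabp7, 0.0369, and Hopx, 0.043) and 3 with quantile normalization or no filter, against 4. Over all genes, those settings called 3459 of 20177 (stricter filter), 4560 of 24866 (normexp) and 6301 of 25397 (all 9 arrays). Quantile normalization called 4667 of 24866 genes there and no filter 3669 of 34733. None of the 9 was called in neural stem cells over astrocytes with quantile normalization, the deposited table or no filter. Fabp7 had adjusted p of 0.0693, 0.0557 and 0.0551 there. In the same order, 3606 of 24866, 2708 of 24866 and 2723 of 34733 genes were called. Prom1 in glioma cells over astrocytes missed the threshold with quantile normalization (0.0524) and no filter (0.0656), as did Fabp7 in tissue over astrocytes with quantile normalization (0.0557). In tissue over glioma cells 1 of the 9 was called with normexp, 0 with the stricter filter, 1 with every probe, 0 with the replicate block and 0 in a fit of the 2 groups, where Prom1 had an adjusted p of 0.0656 and Pax6 of 0.0612. Over all genes there, 3109 of 25397 were called with normexp, 2770 of 19566 with the stricter filter and 2600 of 25397 with the block. The fit of the 2 groups called 4531 of 23737 genes, and the fit of every probe 5937 of 37704 probes. In tissue over astrocytes 5 of the 9 were called with normexp and 5 in a fit of the 2 groups, which add Nes and Pax6. Over all genes, 4753 of 25397 and 5881 of 24493 were called in those settings.

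The replicate block also ended the calls of Prom1 in glioma cells over astrocytes (adjusted p = 0.0516), Fabp7 in neural stem cells over astrocytes (0.0662) and in tissue over astrocytes (0.113), and Prom1 (0.0582) and Pax6 (0.0747) in tissue over glioma cells, and called Hopx in glioma cells (0.0146) and neural stem cells (0.0461) over astrocytes. Where no cause is named, the cause was not tested.

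With an array left out, genes called numbered 0 to 300 (glioma cells over neural stem cells), 2072 to 4796 (glioma cells over astrocytes), 1235 to 2612 (neural stem cells over astrocytes), 1979 to 4646 (tissue over glioma cells), 1643 to 4260 (tissue over neural stem cells) and 3185 to 6050 (tissue over astrocytes). In the same order, 0 to 3, 0 to 4, 0 to 1, 0 to 2, 1 to 1 and 1 to 5 of the 9 genes were called. Differences that changed sign with an array left out had not passed and ranged over -1.73 to 0.66 (Nes), -0.44 to 0.42 (Vim) and -0.057 to 0.037 (Msi1) in glioma cells over neural stem cells, -0.12 to 0.12 (Msi1) in glioma cells over astrocytes, -0.11 to 0.13 (Msi1) and -0.47 to 0.43 (Nr2e1) in neural stem cells over astrocytes, -2.12 to 0.26 (Nes) and -0.75 to 0.59 (Fabp7) in tissue over glioma cells, and -0.75 to 0.49 (Prom1) and -0.61 to 2.04 (Hopx) in tissue over neural stem cells. A lone array was assumed to vary like the other groups.

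Scaling moved the median of all genes. The unscaled deposited table moved it to -0.29 (0.15 in the main setting) in glioma cells over astrocytes, -0.19 (0.21) in neural stem cells over astrocytes, and 0.38 (-0.16) and 0.29 (-0.22) in tissue over glioma cells and neural stem cells. The share of calls that were higher moved with it to 30.1% (47.9%), 24.3% (46.3%), 79.6% (46.2%) and 77.7% (44.9%), and with the percentile over detected probes to 62.3% and 57.6% in the last 2. The slide as a block was not run, since a slide held either tissue or cells. Normexp used the median in place of the mean signal in fits with tissue, whose files lack the mean. Signal near background limits Prom1 and Pax6 in glioma cells.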
